A study of Mus musculus with 12 samples.

Results

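Collagen genes were taken as all symbols of the deposited table made of Col, a number, the letter a and a number, and 44 of 24493 symbols qualified. Of these, 11 encode chains of fibrillar collagens, 8 encode basement membrane collagens and 25 encode other types. Their transcripts were followed in mouse pancreatic tumour cells carrying 4 genotype labels. The labels are EgfrKO, Klf5KO, Smad4KO and WT, with 3 libraries each and 12 in all. The cells of every group go by the name 6649c2, are of the C57BL/6 strain, formed tumours under the skin and were sorted from those tumours before RNA extraction. The knockouts are given by gene only, with no allele or agent, and the sources used here give neither the ages of the mice nor the sorting gate. The design sets each knockout against WT.

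Whether each knockout line came from 1 clone, and whether replicates are separate animals, is left unsaid in the labels. A difference of clone and a difference of genotype cannot be told apart, and p-values measure only the spread between these libraries, which may be technical. Egfr encodes the epidermal growth factor receptor, Smad4 a signalling partner common to the TGF-beta and BMP pathways, and Klf5 a zinc finger factor of epithelial cells. Egfr averaged 4.29 ± 0.759 TPM in EgfrKO, 6.93 ± 1.45 in Klf5KO, 7.95 ± 1.88 in Smad4KO and 13.1 ± 0.850 in WT (SD, n = 3 each), so it was lowest under its own label and was also called lower than WT under the other 2. Smad4 averaged 64.0 ± 2.39 TPM in EgfrKO, 95.8 ± 5.48 in Klf5KO, 30.7 ± 2.39 in Smad4KO and 75.5 ± 4.45 in WT, lowest under its own label. Klf5 averaged 84.9 ± 3.55 TPM in EgfrKO, 93.8 ± 6.35 in the Klf5KO-labelled libraries, 125 ± 10.3 in Smad4KO and 112 ± 16.8 in WT. Against WT it was called lower in Klf5KO (log2 fold change -0.25 ± 0.10, adjusted p = 0.0411) and in EgfrKO (-0.39 ± 0.10, adjusted p = 0.00756). Its Klf5KO and WT libraries overlapped, at 87.8 to 100.5 and 97.1 to 130 TPM, and EgfrKO had a lower mean, so transcript levels do not check the Klf5KO label. The libraries are called Klf5KO by label only.

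Collagens are extracellular proteins in which 3 chains wind into a helix. Fibrillar collagens assemble into the banded fibres that give tissue its tensile strength, and type I is the most abundant of them in connective tissue and in the scar-like stroma of pancreatic tumours. Type IV forms the sheet-like network of basement membranes, on which epithelial cells rest, and types XV and XVIII are proteoglycans of the basement membrane zone. The other types include the beaded filaments of type VI, the anchoring fibrils of type VII and the fibril-associated collagens, which decorate the surface of fibres. In pancreatic tumours fibroblasts make most fibrillar collagen, epithelial cells are among several cell types that make basement membrane collagens, and TGF-beta signalling induces many collagen genes.

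Transcript levels are given in TPM, a share of a library's transcripts that allows for transcript length and so lets genes be compared. TPM keeps no read depth, so depth is unknown here and no counting interval can be given. In these bulk samples, fewer cells of a type and less RNA per cell cannot be told apart. Fold changes are differences of mean log2(TPM + 1) from limma with their standard errors (SE), which understate the change of genes at low TPM. A gene was called at an adjusted p under 0.05 (Benjamini-Hochberg over all genes tested). The 3 contrasts against WT share the WT libraries.

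Of the 44 collagen genes, 22 had at least 1 TPM in at least 3 libraries and were tested: 8 fibrillar, 5 basement membrane and 9 other. This filter can pass a gene through 1 group alone. The other 22 were too low to test, and 19 of them stayed under 0.5 TPM in every library. Among these 22, Col23a1 and Col14a1 reached 1 TPM, with their highest values of 1.62 and 1.41 TPM in Klf5KO libraries. Col9a1, a chain of cartilage type IX, was listed at 0 in all 12 libraries, and 9 of the 22 were listed at 0 in at least 6. Cartilage type II (Col2a1), with at most 0.126 TPM, and the type IV chains Col4a3, Col4a4 and Col4a6, with at most 0.123, 0.0970 and 0.0552 TPM, were among the low genes.

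The collagen transcripts of these tumour cells were led by a few genes. Averaged over the 12 libraries, Col18a1 held 23.1% of summed collagen TPM, Col6a1 17.8% and Col4a1 13.2%, together 54.1%. Col27a1 came next with 7.88%, ahead of Col6a2 with 7.30% and the type I chain Col1a1 with 6.81%. Basement membrane collagens made up 44.0% ± 0.330 of collagen TPM in EgfrKO, 34.4% ± 2.85 in Klf5KO, 53.9% ± 0.822 in Smad4KO and 49.7% ± 2.61 in WT (SD, n = 3 each). Fibrillar collagens made up 24.3% ± 0.504 in EgfrKO, 33.4% ± 4.78 in Klf5KO, 24.3% ± 0.903 in Smad4KO and 20.8% ± 4.49 in WT.

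By mean TPM as deposited, Klf5KO was the highest of the 4 labels for 19 of the 22 tested genes, and Smad4KO the lowest for 17. These places were not counted over all genes tested, so no share stands beside them. Against WT, 18 collagen genes rose and 1 fell in Klf5KO, where 55.2% of the 13662 genes tested were called higher and 11.1% lower. In Smad4KO 2 rose and 13 fell, against a background of 32.2% higher and 17.4% lower. In EgfrKO 5 rose and 5 fell, against 31.3% and 12%. Wherever a class or list below had no gene past the threshold in a direction against WT, it had none at an unadjusted p under 0.05 either, unless a count is given. The median log2 fold change of the 22 was 0.07 in EgfrKO, 1.05 in Klf5KO and -0.67 in Smad4KO, beside 0.14, 0.31 and 0.10 for all genes tested. The EgfrKO share was 22.7% in each direction, below its background for higher and above it for lower, and the shares of 81.8% higher in Klf5KO and 59.1% lower in Smad4KO were above theirs.

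Because the median of all genes was not at 0, libraries were also scaled by the median of ratios, which moved that median down by 0.13 in EgfrKO, 0.31 in Klf5KO and 0.10 in Smad4KO. After scaling, 1 collagen gene was called higher and 8 lower in EgfrKO, where 18.2% and 22.1% of all genes were called. In Klf5KO 14 were higher and 2 lower, against 24.9% and 27.3%. In Smad4KO the counts were 2 higher and 13 lower, as before scaling, against 24.8% and 25.2%. The EgfrKO counts therefore depend on how libraries are put on 1 scale, and they also moved with single libraries: 2 to 7 were higher and 3 to 4 lower when each library was left out in turn.

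**Figure D1:**
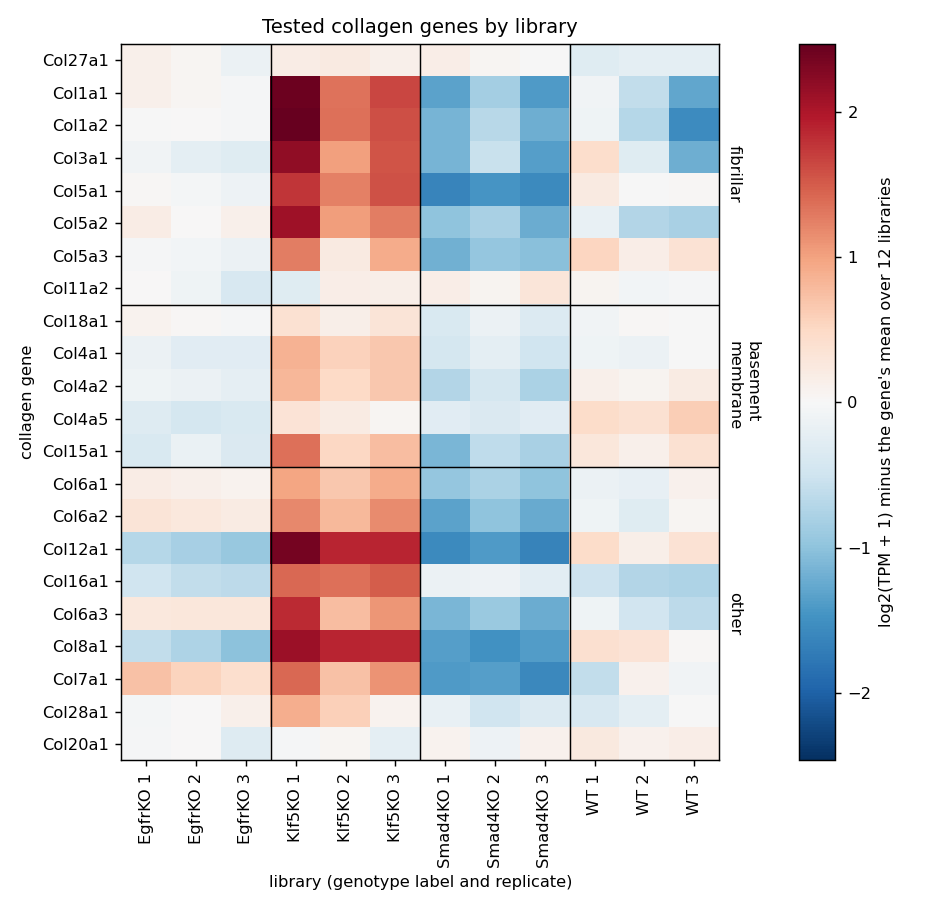
Each row is 1 of the 22 tested collagen genes and each column 1 library, and colour shows log2(TPM + 1) minus the gene's mean over the 12 libraries. Rows are grouped as fibrillar, basement membrane and other. The Klf5KO columns are the reddest for most rows, with Klf5KO 1 the most intense, and the Smad4KO columns are the bluest. Col27a1, Col11a2 and Col20a1 change little across the plot.

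Summed over each class, fibrillar collagens stood at 217, 204 and 190 TPM in EgfrKO, 741, 402 and 484 TPM in Klf5KO, 136, 151 and 123 TPM in Smad4KO, and 203, 158 and 127 TPM in WT. Only the Klf5KO libraries lay clear of all others. Basement membrane collagens summed to 369 ± 14.9 TPM in EgfrKO, 545 ± 52.2 in Klf5KO, 304 ± 27.1 in Smad4KO and 388 ± 12.4 in WT (SD, n = 3 each). Other collagens summed to 266 ± 10.7 TPM in EgfrKO, 512 ± 65.0 in Klf5KO, 123 ± 10.3 in Smad4KO and 231 ± 22.6 in WT. For this last class the Smad4KO libraries, at 116 to 135 TPM, lay below all WT libraries, at 211 to 256 TPM. Klf5KO replicate 1 had the highest sum in all 3 classes, and leaving it out lowered the mean fibrillar sum of Klf5KO to 443 TPM.

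**Figure D2:**
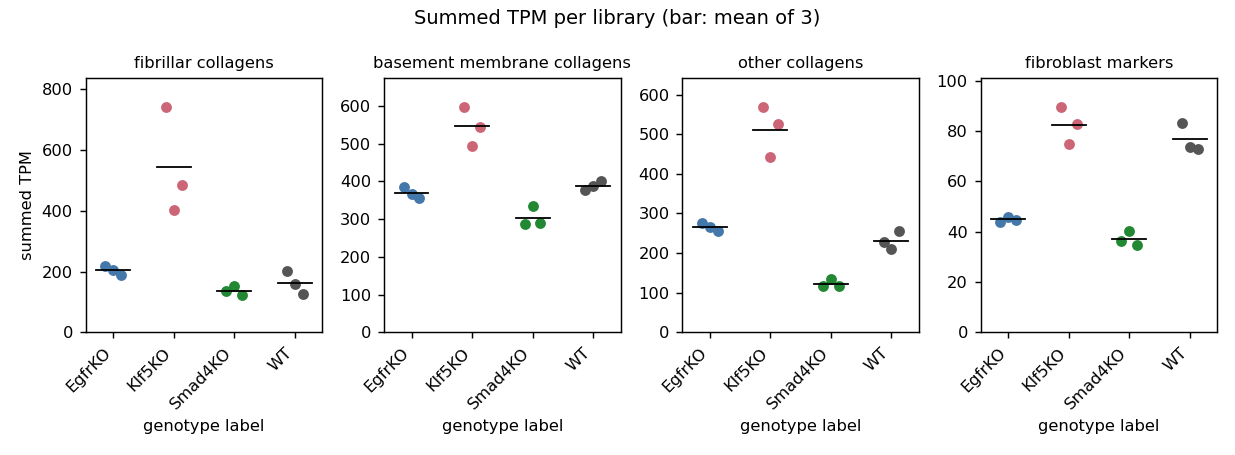
Summed TPM of fibrillar, basement membrane and other collagens, and of a list of 10 fibroblast marker genes, in each library; points are libraries and bars are means of 3. The 3 Klf5KO libraries are highest in each collagen class. The fibroblast sums of Klf5KO and WT overlap, at 74.9 to 89.7 and 73.0 to 83.1 TPM, and without the single gene Mmp3 they do not, at 48.9 to 68.8 and 26.0 to 41.8 TPM.

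Fibrillar collagens were higher in Klf5KO for 6 of 8 tested genes. In Smad4KO 1 was higher and 2 were lower, and in EgfrKO 2 were higher and none lower by limma. After median-of-ratios scaling neither of those 2 was called in EgfrKO, and Col5a3 was called lower there. Before scaling, 75% of the fibrillar genes were higher in Klf5KO, where 55.2% of all genes tested were. In Smad4KO 12.5% were higher and 25% lower, against 32.2% and 17.4%. In EgfrKO 25% were higher, against 31.3%. The EgfrKO share higher and the Smad4KO share lower were thus near those of all genes. The median log2 fold change of the fibrillar genes was 0.21 in EgfrKO, 1.69 in Klf5KO and -0.48 in Smad4KO. Col1a1 and Col1a2 encode the chains of type I collagen. Col1a1 was measured at 48.0, 45.4 and 43.0 TPM in EgfrKO, 239, 112 and 139 TPM in Klf5KO, 17.1, 24.2 and 16.1 TPM in Smad4KO, and 41.6, 28.7 and 17.5 TPM in WT. Klf5KO replicate 1 was the highest library by far, and the WT libraries spread widely, from 17.5 to 41.6 TPM. The log2 fold change of Col1a1 was 2.45 ± 0.30 (adjusted p = 3.22e-05) in Klf5KO, a mean 5.60 times that of WT. In Smad4KO it was -0.53 ± 0.30 (adjusted p = 0.174), with overlapping libraries, and it was called without WT replicate 3, at -0.84 (adjusted p = 0.0330). In EgfrKO it was 0.70 ± 0.30 (adjusted p = 0.0826), although all 3 EgfrKO libraries lay above WT. That EgfrKO difference was called once WT replicate 1 was left out, at 0.99 (adjusted p = 0.0227), and so was that of Col1a2, at 1.12 (0.0179).

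Col1a2 followed Col1a1. It stood at 31.2, 31.4 and 30.9 TPM in EgfrKO, 178, 81.8 and 96.7 TPM in Klf5KO, 13.7, 19.0 and 13.1 TPM in Smad4KO, and 29.1, 19.0 and 9.99 TPM in WT. The EgfrKO libraries ranged only from 30.9 to 31.4 TPM, and the Smad4KO libraries overlapped with WT. Against WT the log2 difference was 2.59 ± 0.34 (adjusted p = 4.53e-05) in Klf5KO, a mean 6.13 times that of WT, 0.78 ± 0.34 (adjusted p = 0.0825) in EgfrKO and -0.22 ± 0.34 (adjusted p = 0.608) in Smad4KO. Col3a1, the single chain of type III collagen, which shares fibres with type I, stood at 30.8, 27.3 and 26.2 TPM in EgfrKO, 151, 67.1 and 98.1 TPM in Klf5KO, 14.3, 22.1 and 12.1 TPM in Smad4KO, and 44.7, 26.4 and 13.5 TPM in WT. Its WT libraries spanned a wider range than the EgfrKO or the Smad4KO libraries. Col3a1 rose in Klf5KO by 1.94 ± 0.38 (log2, SE; adjusted p = 0.000814), and was at 0.14 ± 0.38 (adjusted p = 0.784) in EgfrKO and -0.66 ± 0.38 (adjusted p = 0.172) in Smad4KO. Without WT replicate 3 the Smad4KO value was called, at -1.08 (adjusted p = 0.0219). The promoters of these genes are shown for the letters CAGAC, the core bound by SMAD proteins, and CACCC, a box bound by KLF factors. Capitals mark matches on either strand in the 300 bases of RefSeq (GRCm38.p6) around the annotated start, at chr6:4505368-4505667 on the plus strand for Col1a2 and chr1:45311288-45311587 on the plus strand for Col3a1.
Col1a2: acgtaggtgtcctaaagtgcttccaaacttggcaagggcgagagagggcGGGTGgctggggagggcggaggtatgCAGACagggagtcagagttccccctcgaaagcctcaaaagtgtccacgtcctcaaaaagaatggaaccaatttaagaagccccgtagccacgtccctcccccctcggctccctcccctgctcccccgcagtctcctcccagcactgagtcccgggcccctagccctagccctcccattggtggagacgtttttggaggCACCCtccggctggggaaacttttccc
Col3a1: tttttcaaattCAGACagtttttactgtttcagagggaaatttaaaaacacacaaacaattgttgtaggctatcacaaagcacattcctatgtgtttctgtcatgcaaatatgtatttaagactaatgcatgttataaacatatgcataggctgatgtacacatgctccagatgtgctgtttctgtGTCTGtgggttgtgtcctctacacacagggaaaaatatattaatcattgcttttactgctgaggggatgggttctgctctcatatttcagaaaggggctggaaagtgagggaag
The Col1a2 window held 1 match to CAGAC and 2 to CACCC, and the Col3a1 window held 2 to CAGAC and 0 to CACCC. Such short words are common: CAGAC was in 49.6% and CACCC in 57.5% of all 32851 promoter windows of this length, and in 13 and 15 of the 21 windows of tested collagen genes. A match is a description of the letters and not a binding site. No promoter window was given for Col1a1.

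Type V collagen sits inside type I fibres and sets their width. Its main chain, Col5a1, changed with less spread than type I, at 15.4, 14.6 and 13.8 TPM in EgfrKO, 53.8, 37.0 and 46.9 TPM in Klf5KO, 4.24, 4.91 and 4.44 TPM in Smad4KO, and 17.7, 14.9 and 15.4 TPM in WT. All Klf5KO libraries lay above and all Smad4KO libraries below the other 2 groups. Its log2 fold change was 1.45 ± 0.12 (adjusted p = 1.97e-06) in Klf5KO and -1.62 ± 0.12 (adjusted p = 7.34e-07) in Smad4KO, a mean 0.283 times that of WT, and -0.13 ± 0.12 (adjusted p = 0.421) in EgfrKO. Col5a2, its partner chain, had 5.74, 5.02 and 5.48 TPM in EgfrKO, 24.4, 11.2 and 13.2 TPM in Klf5KO, 1.97, 2.44 and 1.55 TPM in Smad4KO, and 4.24, 2.62 and 2.41 TPM in WT. It rose in Klf5KO, at 2.03 ± 0.25 (adjusted p = 2.85e-05), and in EgfrKO, at 0.67 ± 0.25 (adjusted p = 0.0449), and the EgfrKO call was lost after scaling, at 0.56 (adjusted p = 0.0783), and without WT replicate 2 or 3 or any EgfrKO library (adjusted p = 0.0766 to 0.146). In Smad4KO it was at -0.44 ± 0.25 (adjusted p = 0.164). Col5a3, a rarer type V chain, had 3.02, 2.92 and 2.73 TPM in EgfrKO, 8.91, 3.79 and 6.77 TPM in Klf5KO, 0.811, 1.13 and 1.01 TPM in Smad4KO, and 4.94, 3.60 and 4.27 TPM in WT. Its Smad4KO libraries were all under 1.2 TPM and did not overlap with WT. It fell in Smad4KO by 1.40 ± 0.21 (log2, SE; adjusted p = 0.000219), and was at 0.45 ± 0.21 (adjusted p = 0.0818) in Klf5KO, which became 0.74 (adjusted p = 0.00132) without Klf5KO replicate 2. In EgfrKO it was at -0.43 ± 0.21 (adjusted p = 0.125), with all libraries below WT, and after scaling it was called lower, at -0.55 (adjusted p = 0.0484).

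Col27a1, a fibrillar chain best known from cartilage, was the fibrillar gene with the highest mean TPM over all libraries. It had 81.0, 76.8 and 67.0 TPM in EgfrKO, 84.5, 86.9 and 80.7 TPM in Klf5KO, 82.9, 76.4 and 73.5 TPM in Smad4KO, and 59.6, 62.1 and 62.8 TPM in WT. All knockout libraries lay above the WT libraries, by a small margin. Relative to WT it changed in log2 by 0.28 ± 0.07 in EgfrKO (adjusted p = 0.0081), 0.44 ± 0.07 in Klf5KO (adjusted p = 0.000183) and 0.33 ± 0.07 in Smad4KO (adjusted p = 0.00226). After scaling, the Smad4KO call remained, at 0.22 (adjusted p = 0.00732), and the others did not, at 0.13 (adjusted p = 0.0914) in EgfrKO and 0.094 (adjusted p = 0.185) in Klf5KO. Col11a2, a type XI chain, ranged from 0.524 to 1.43 TPM over the 12 libraries and was called in none of the 6 contrasts.

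**Figure D3:**
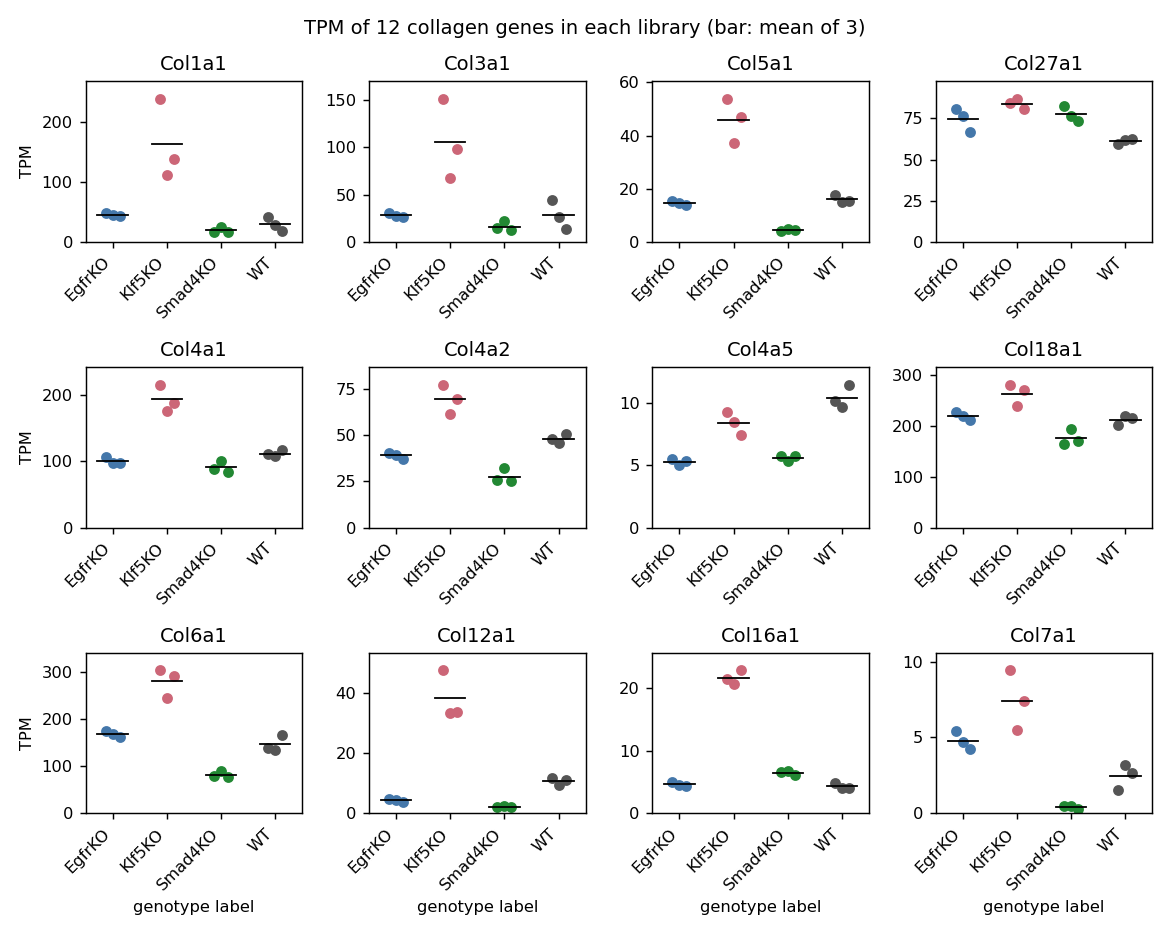
TPM of 12 collagen genes, 1 panel each, by genotype label; points are libraries, bars are means of 3, and each axis starts at 0. Col1a1 and Col3a1 vary widely among WT and among Klf5KO libraries. Among these genes the Klf5KO and Smad4KO libraries overlap only for Col27a1, and for Col4a5 the WT libraries are highest, at 9.65 to 11.5 TPM.

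All 5 tested basement membrane collagens fell in Smad4KO. In EgfrKO 3 fell and none rose by limma, and in Klf5KO 4 rose and 1 fell. The 100% lower in Smad4KO and 60% lower in EgfrKO compared with 17.4% and 12% of all genes tested. In Klf5KO 80% were higher and 20% lower, against 55.2% and 11.1%. The median log2 fold change of these 5 genes was -0.29 in EgfrKO, 0.52 in Klf5KO and -0.78 in Smad4KO. After scaling only Col4a1 was still called higher in Klf5KO, and 4 were called lower in EgfrKO. Col4a1 and Col4a2 encode the 2 chains of the common type IV network and lie head to head on chromosome 8, transcribed away from each other. The windows around their starts are shown because the genes share this stretch of DNA, at chr8:11312555-11312854 on the plus strand for Col4a2 and chr8:11312777-11313076 on the minus strand for Col4a1 (GRCm38.p6, RefSeq). Capitals mark the 22 bases between the annotated starts used for these windows, both included, which each window shows on its own strand. The RefSeq gene entry of Col4a1 reaches further, to chr8:11312889, so the distance depends on the start chosen.
Col4a2: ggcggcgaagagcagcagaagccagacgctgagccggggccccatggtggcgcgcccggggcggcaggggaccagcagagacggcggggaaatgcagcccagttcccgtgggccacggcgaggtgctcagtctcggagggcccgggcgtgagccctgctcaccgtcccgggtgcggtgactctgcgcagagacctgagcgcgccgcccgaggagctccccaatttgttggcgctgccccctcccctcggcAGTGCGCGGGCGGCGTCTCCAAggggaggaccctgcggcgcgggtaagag
Col4a1: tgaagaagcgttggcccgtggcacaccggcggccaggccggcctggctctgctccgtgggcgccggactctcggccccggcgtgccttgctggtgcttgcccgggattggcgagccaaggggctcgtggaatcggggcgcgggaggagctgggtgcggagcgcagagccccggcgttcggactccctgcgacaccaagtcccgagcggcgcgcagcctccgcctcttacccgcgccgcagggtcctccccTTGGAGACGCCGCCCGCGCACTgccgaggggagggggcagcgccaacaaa
The exons of these genes overlap by 22 bases on opposite strands in GENCODE M21. The sources used here do not say whether the TPM values use strand, and without it reads within that overlap cannot be told apart.

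Col4a1 had 107, 98.0 and 97.9 TPM in EgfrKO, 216, 177 and 189 TPM in Klf5KO, 88.1, 101 and 84.7 TPM in Smad4KO, and 111, 108 and 117 TPM in WT. On the log2 scale it differed from WT by 0.78 ± 0.08 (adjusted p = 9.77e-06) in Klf5KO and -0.29 ± 0.08 (adjusted p = 0.0108) in Smad4KO. In EgfrKO it was -0.15 ± 0.08 (adjusted p = 0.168), and after scaling it was called lower, at -0.30 (adjusted p = 0.00392). Col4a2 had 40.6, 39.3 and 37.4 TPM in EgfrKO, 77.3, 61.4 and 69.7 TPM in Klf5KO, 25.9, 32.0 and 25.0 TPM in Smad4KO, and 47.9, 45.9 and 50.5 TPM in WT. None of the knockout libraries overlapped with WT. Against WT the log2 difference was -0.29 ± 0.10 in EgfrKO (adjusted p = 0.0316), 0.52 ± 0.10 in Klf5KO (adjusted p = 0.000681) and -0.78 ± 0.10 in Smad4KO (adjusted p = 4.79e-05). The Klf5KO call was lost after scaling, at 0.17 (adjusted p = 0.109), and the EgfrKO call was lost without WT replicate 1 or 3 or without any 1 of the EgfrKO libraries, with adjusted p of 0.0521 to 0.102.

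Within each library, Col4a2 TPM divided by Col4a1 TPM was 0.380, 0.401 and 0.382 in EgfrKO, 0.358, 0.348 and 0.370 in Klf5KO, 0.294, 0.318 and 0.296 in Smad4KO, and 0.433, 0.426 and 0.431 in WT. WT libraries had the highest ratios and Smad4KO libraries the lowest, and no groups overlapped. A ratio of chains within a library does not depend on how libraries are scaled, and it shows only that the chains changed unequally.

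Col4a5, a chain of a more specialised type IV network encoded on the X chromosome, was the 1 tested collagen gene called lower in all 3 knockouts. It had 5.54, 5.04 and 5.32 TPM in EgfrKO, 9.29, 8.44 and 7.46 TPM in Klf5KO, 5.76, 5.38 and 5.71 TPM in Smad4KO, and 10.2, 9.65 and 11.5 TPM in WT. Its log2 fold change was -0.86 ± 0.09 in EgfrKO (adjusted p = 3.15e-05), -0.28 ± 0.09 in Klf5KO (adjusted p = 0.0182) and -0.79 ± 0.09 in Smad4KO (adjusted p = 3.19e-05). The Klf5KO call was the weakest and was lost without WT replicate 3 (adjusted p = 0.0812) or Klf5KO replicate 3 (0.0808), and after scaling it was larger, at -0.60 (adjusted p = 0.000197).

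Col18a1, whose protein releases the fragment endostatin, had the highest mean TPM over all 12 libraries of any collagen gene. Within Klf5KO the mean of Col6a1 was higher, at 279 TPM against 264 TPM for Col18a1. It had 229, 220 and 212 TPM in EgfrKO, 282, 240 and 271 TPM in Klf5KO, 166, 194 and 171 TPM in Smad4KO, and 202, 220 and 216 TPM in WT. The EgfrKO and WT libraries overlapped, the Klf5KO libraries were highest and the Smad4KO libraries lowest. The log2 fold change was -0.26 ± 0.07 (adjusted p = 0.0097) in Smad4KO and 0.05 ± 0.07 (adjusted p = 0.593) in EgfrKO. In Klf5KO it was 0.31 ± 0.07 (adjusted p = 0.00251) and changed sign after scaling, to -0.043 (adjusted p = 0.572). Col15a1, the related type XV chain, had 3.30, 3.97 and 3.35 TPM in EgfrKO, 13.3, 6.95 and 8.34 TPM in Klf5KO, 1.54, 2.61 and 2.21 TPM in Smad4KO, and 5.73, 5.09 and 6.19 TPM in WT. It fell in Smad4KO, at -1.11 ± 0.20 (adjusted p = 0.000654), and in EgfrKO, at -0.55 ± 0.20 (adjusted p = 0.0395), a call lost when any 1 library of EgfrKO or WT was left out (adjusted p = 0.0523 to 0.116). It rose in Klf5KO by 0.62 ± 0.20 (log2, SE; adjusted p = 0.0159), which dropped to 0.37 (adjusted p = 0.0591) without Klf5KO replicate 1 and to 0.30 (adjusted p = 0.192) after scaling.

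Among the other collagens, 8 of 9 tested genes rose in Klf5KO and none fell by limma. In Smad4KO 1 rose and 6 fell, and in EgfrKO 3 rose and 2 fell. After scaling the EgfrKO counts were 1 higher and 3 lower, and the Klf5KO counts 8 higher and 1 lower. Before scaling, 88.9% of these genes were higher in Klf5KO, where 55.2% of all genes tested were. In Smad4KO 11.1% were higher and 66.7% lower, against 32.2% and 17.4%. In EgfrKO 33.3% were higher and 22.2% lower, against 31.3% and 12%. The median log2 fold change of these genes was 0.21 in EgfrKO, 1.28 in Klf5KO and -0.83 in Smad4KO. Type VI collagen forms beaded filaments near cells from chains encoded by Col6a1, Col6a2 and Col6a3, of which Col6a1 and Col6a2 lie near each other on chromosome 10. Col6a1 had 175, 168 and 162 TPM in EgfrKO, 303, 244 and 291 TPM in Klf5KO, 79.0, 89.3 and 77.2 TPM in Smad4KO, and 139, 134 and 166 TPM in WT. Col6a2 had 73.6, 70.7 and 68.0 TPM in EgfrKO, 137, 104 and 134 TPM in Klf5KO, 23.3, 29.2 and 24.4 TPM in Smad4KO, and 55.0, 47.8 and 61.0 TPM in WT. For both, Klf5KO libraries were highest and Smad4KO libraries lowest, with no overlap with the other labels. The log2 fold change of Col6a1 was 0.21 ± 0.10 in EgfrKO (adjusted p = 0.102), 0.93 ± 0.10 in Klf5KO (adjusted p = 8.72e-06) and -0.83 ± 0.10 in Smad4KO (adjusted p = 2.51e-05). That of Col6a2 was 0.37 ± 0.12 in EgfrKO (adjusted p = 0.0239), 1.18 ± 0.12 in Klf5KO (adjusted p = 7.31e-06) and -1.06 ± 0.12 in Smad4KO (adjusted p = 1.83e-05), and its EgfrKO call was lost after scaling, at 0.23 (adjusted p = 0.132), and without WT replicate 2 or EgfrKO replicate 1 or 2 (adjusted p = 0.0585 to 0.0927).

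Col6a3, the largest type VI chain, was far less abundant, with 7.08, 7.24 and 7.23 TPM in EgfrKO, 23.1, 10.5 and 13.3 TPM in Klf5KO, 2.08, 2.57 and 1.90 TPM in Smad4KO, and 5.29, 3.91 and 3.32 TPM in WT. Klf5KO replicate 1 again stood highest. On the log2 scale it differed from WT by 0.68 ± 0.23 in EgfrKO (adjusted p = 0.0305), 1.63 ± 0.23 in Klf5KO (adjusted p = 7.23e-05) and -0.69 ± 0.23 in Smad4KO (adjusted p = 0.0252), and the EgfrKO call was lost after scaling, at 0.56 (adjusted p = 0.0572), and without WT replicate 2 or 3 or any EgfrKO library (adjusted p = 0.0650 to 0.111). The Smad4KO call was lost without WT replicate 1 (adjusted p = 0.0968), Smad4KO replicate 1 (0.0638) or Smad4KO replicate 3 (0.0742). The ratio of Col6a2 to Col6a1 was 0.421, 0.422 and 0.418 in EgfrKO, 0.452, 0.427 and 0.462 in Klf5KO, 0.295, 0.327 and 0.315 in Smad4KO, and 0.395, 0.358 and 0.368 in WT. It was highest in Klf5KO and EgfrKO, lowest in Smad4KO, and the Smad4KO and WT libraries did not overlap.

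Col12a1, Col16a1 and Col20a1 encode fibril-associated collagens. Col12a1 had 4.77, 4.31 and 3.93 TPM in EgfrKO, 47.5, 33.5 and 33.7 TPM in Klf5KO, 2.16, 2.59 and 2.03 TPM in Smad4KO, and 11.8, 9.48 and 11.1 TPM in WT. No groups overlapped, and Klf5KO libraries were far above WT while EgfrKO and Smad4KO libraries were below it. Against WT the log2 difference was -1.14 ± 0.14 in EgfrKO (adjusted p = 6.75e-05), 1.72 ± 0.14 in Klf5KO (adjusted p = 1.63e-06) and -1.86 ± 0.14 in Smad4KO (adjusted p = 7.93e-07). The Smad4KO mean was 0.209 times that of WT and the Klf5KO mean 3.54 times. Col16a1 had 4.95, 4.53 and 4.37 TPM in EgfrKO, 21.3, 20.7 and 22.8 TPM in Klf5KO, 6.61, 6.72 and 6.07 TPM in Smad4KO, and 4.87, 4.08 and 3.99 TPM in WT. The 3 Klf5KO libraries lay close together and far above the rest. Its log2 fold change was 2.09 ± 0.09 (adjusted p = 2.03e-08) in Klf5KO and 0.49 ± 0.09 (adjusted p = 0.00069) in Smad4KO, where it was 1 of the 2 collagen genes called higher. In EgfrKO it was 0.08 ± 0.09 (adjusted p = 0.484). Col20a1 ranged from 0.686 to 1.49 TPM over all libraries and was called in none of the 6 contrasts before scaling. After scaling it was called lower than WT in EgfrKO, at -0.37 (adjusted p = 0.0421), and in Klf5KO, at -0.43 (adjusted p = 0.0172).

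Col8a1 encodes a short-chain, network-forming collagen of vessel walls and other tissues, and Col7a1 the chain of the anchoring fibrils that tie basement membranes to the connective tissue beneath. Col8a1 had 2.13, 1.83 and 1.39 TPM in EgfrKO, 19.6, 16.5 and 16.3 TPM in Klf5KO, 0.867, 0.713 and 0.840 TPM in Smad4KO, and 5.29, 5.05 and 3.92 TPM in WT. Its groups did not overlap and took the same order as Col12a1. Relative to WT it changed in log2 by -1.05 ± 0.13 in EgfrKO (adjusted p = 9.48e-05), 1.69 ± 0.13 in Klf5KO (adjusted p = 1.44e-06) and -1.66 ± 0.13 in Smad4KO (adjusted p = 1.35e-06). Col7a1 had 5.43, 4.73 and 4.22 TPM in EgfrKO, 9.42, 5.47 and 7.39 TPM in Klf5KO, 0.479, 0.517 and 0.309 TPM in Smad4KO, and 1.57, 3.22 and 2.69 TPM in WT. Here the EgfrKO libraries lay above WT, and the Smad4KO libraries were all under 0.6 TPM. On the log2 scale it differed from WT by 0.76 ± 0.20 in EgfrKO (adjusted p = 0.0109), 1.27 ± 0.20 in Klf5KO (adjusted p = 0.00019) and -1.26 ± 0.20 in Smad4KO (adjusted p = 0.000326), where the mean was 0.175 times that of WT. Their promoter windows are shown with CAGAC and CACCC matches in capitals, at chr9:108953336-108953635 on the plus strand for Col7a1 and chr16:57754688-57754987 on the minus strand for Col8a1 (GRCm38.p6, RefSeq).
Col7a1: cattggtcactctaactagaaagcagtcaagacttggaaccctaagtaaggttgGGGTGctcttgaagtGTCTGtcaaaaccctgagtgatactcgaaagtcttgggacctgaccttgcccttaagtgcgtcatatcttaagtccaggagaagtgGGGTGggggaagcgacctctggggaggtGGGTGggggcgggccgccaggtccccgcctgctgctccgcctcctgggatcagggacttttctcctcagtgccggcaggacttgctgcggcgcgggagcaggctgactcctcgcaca
Col8a1: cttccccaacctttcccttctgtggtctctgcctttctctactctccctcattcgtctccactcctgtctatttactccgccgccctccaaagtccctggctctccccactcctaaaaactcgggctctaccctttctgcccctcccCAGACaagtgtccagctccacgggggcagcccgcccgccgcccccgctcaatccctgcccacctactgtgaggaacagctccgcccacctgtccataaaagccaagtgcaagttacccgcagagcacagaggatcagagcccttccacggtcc
The Col7a1 window held 1 match to CAGAC and 3 to CACCC, and the Col8a1 window held 1 and 0. No promoter window was given for Col12a1, Col5a2 or Col6a3. In GENCODE M21 an exon of Col7a1 overlaps the microRNA gene Mir711, which was listed at 0 in every library.

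Col28a1, a minor type XXVIII chain, had 1.63, 1.72 and 1.96 TPM in EgfrKO, 4.03, 3.09 and 1.90 TPM in Klf5KO, 1.38, 0.940 and 1.14 TPM in Smad4KO, and 1.07, 1.30 and 1.70 TPM in WT. It rose in Klf5KO by 0.74 ± 0.19 (log2, SE; adjusted p = 0.00458) and was at 0.24 ± 0.19 (adjusted p = 0.324) in EgfrKO and -0.13 ± 0.19 (adjusted p = 0.604) in Smad4KO.

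**Figure D4:**
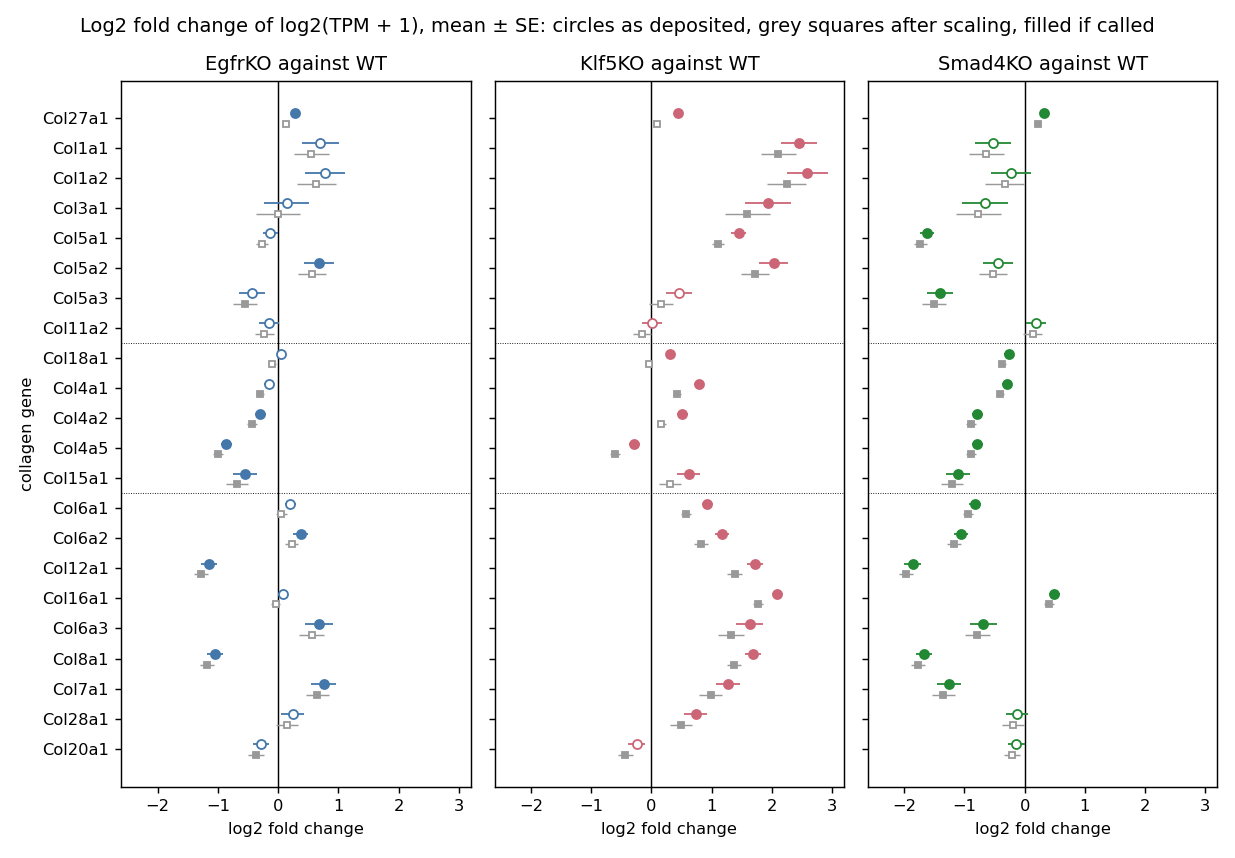
Log2 fold change against WT of the 22 tested collagen genes in EgfrKO, Klf5KO and Smad4KO, with bars of 1 SE, as deposited (circles) and after median-of-ratios scaling (grey squares); filled symbols were called at an adjusted p under 0.05. In Klf5KO 18 filled circles lie right of 0 and 1 left, and after scaling Col18a1 changes sign. In Smad4KO 13 lie left of 0, and Col27a1 and Col16a1 right.

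The knockouts were also set against each other. In Klf5KO against Smad4KO, 19 collagen genes were higher and none lower by limma, where 45.5% and 18.3% of all genes tested were called, and no collagen gene was lower at an unadjusted p under 0.05 (0 of 22). The same counts, 19 and 0, held after scaling and when any 1 library of these groups was left out. In EgfrKO against Klf5KO, none was higher and 19 were lower, against 14.7% and 40.5%, with 0 higher and 20 lower at an unadjusted p. In EgfrKO against Smad4KO, 14 were higher and 1, Col16a1, was lower, against 18.7% and 14.5%. The median log2 fold change of the 22 was 1.81 in Klf5KO against Smad4KO, -0.91 in EgfrKO against Klf5KO and 0.66 in EgfrKO against Smad4KO, beside 0.21, -0.16 and 0.03 for all genes. Between Klf5KO and Smad4KO the mean of Col8a1 differed 21.7-fold, that of Col7a1 17.1-fold, that of Col12a1 16.9-fold and that of Col5a1 10.1-fold, while Col27a1 differed 1.08-fold and was not called (adjusted p = 0.173). The ratios of Col8a1 and Col7a1 rest on Smad4KO means under 1 TPM, at 0.807 and 0.435 TPM. On the fitted scale the log2 fold change of Col7a1 was 2.53.

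In all 6 contrasts 7 genes were called: Col4a2, Col6a2, Col6a3, Col7a1, Col8a1, Col12a1 and Col15a1. How many of all genes tested were called in all 6 was not counted, so no share stands beside this count. The EgfrKO calls against WT of Col4a2, Col6a2, Col6a3 and Col15a1 were lost when certain single libraries were left out. So were the calls against WT of Col15a1 in Klf5KO and of Col6a3 in Smad4KO. The same held for Col7a1 in EgfrKO against Klf5KO (adjusted p = 0.047, and 0.157 after scaling) and Col15a1 in EgfrKO against Smad4KO (0.0492). Scaling removed the Klf5KO calls against WT of Col4a2 and Col15a1, and the EgfrKO calls against WT of Col6a2 and Col6a3. For each of the 7 genes the Klf5KO mean was highest and the Smad4KO mean lowest. They differed in where EgfrKO stood: it was below WT for Col4a2, Col8a1, Col12a1 and Col15a1 and above WT for Col6a2, Col6a3 and Col7a1. For Col1a1 the means ran in the order Klf5KO, EgfrKO, WT and Smad4KO, and of these neighbours only Klf5KO and EgfrKO were called apart (log2 fold change in EgfrKO against Klf5KO -1.75 ± 0.30, adjusted p = 0.000482).

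Col1a1, Col1a2 and Col3a1 varied widely in both Klf5KO and WT, with coefficients of variation of 40.9%, 43.4% and 40.3% in Klf5KO and 41.3%, 49.4% and 55.5% in WT. Col5a1 TPM divided by Col1a1 TPM was 0.321, 0.321 and 0.320 in EgfrKO, 0.225, 0.330 and 0.336 in Klf5KO, 0.248, 0.203 and 0.275 in Smad4KO, and 0.426, 0.521 and 0.884 in WT. The EgfrKO libraries were nearly equal, and the WT ratios ranged from 0.426 to 0.884. Col1a1 divided by Col3a1 was 1.56, 1.66 and 1.64 in EgfrKO, 1.58, 1.67 and 1.42 in Klf5KO, 1.20, 1.10 and 1.33 in Smad4KO, and 0.931, 1.09 and 1.29 in WT. The EgfrKO and Klf5KO libraries all lay above the Smad4KO and WT libraries.

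Collagen chains are hydroxylated, glycosylated and folded in the endoplasmic reticulum before secretion. The lists that follow are to be read against all genes tested, of which 31.3% were called higher and 12% lower in EgfrKO, 55.2% and 11.1% in Klf5KO, and 32.2% and 17.4% in Smad4KO. A gene of low TPM can pass the filter through a group where it is high, which favours a call higher there. Of 19 tested genes for these steps, 1 rose and 7 fell in EgfrKO, 13 rose and 3 fell in Klf5KO, and 2 rose and 9 fell in Smad4KO. The 68.4% called higher in Klf5KO was near the share of all genes, and the 36.8% lower in EgfrKO and 47.4% lower in Smad4KO were above it. Their median log2 fold change was -0.02 in EgfrKO, 0.34 in Klf5KO and -0.18 in Smad4KO, and after scaling 3 were higher and 7 lower in Klf5KO, with a median of -0.00057. Serpinh1, the collagen chaperone Hsp47, averaged 138 ± 4.52 TPM in EgfrKO, 338 ± 22.5 in Klf5KO, 91.6 ± 3.02 in Smad4KO and 236 ± 16.5 in WT (SD, n = 3 each). Against WT the log2 difference was -0.77 ± 0.06 in EgfrKO (adjusted p = 3.28e-06), 0.51 ± 0.06 in Klf5KO (adjusted p = 2.38e-05) and -1.35 ± 0.06 in Smad4KO (adjusted p = 2.33e-08), and the Klf5KO call was lost after scaling, at 0.16 (adjusted p = 0.069). Fkbp10, a prolyl isomerase that folds collagen, fell in all 3 knockouts and most in Smad4KO, to 17.6 ± 0.788 TPM, against 48.4 ± 3.88 TPM in WT. The log2 fold change of Fkbp10 was -0.38 ± 0.07 in EgfrKO (adjusted p = 0.00107), -0.24 ± 0.07 in Klf5KO (adjusted p = 0.00802) and -1.41 ± 0.07 in Smad4KO (adjusted p = 3.36e-08). Plod2, a lysyl hydroxylase, fell to 24.5 ± 2.93 TPM in EgfrKO and 17.8 ± 1.91 TPM in Smad4KO, against 42.9 ± 2.33 TPM in WT (log2 fold changes -0.79 ± 0.11 in EgfrKO, adjusted p = 0.000186, and -1.22 ± 0.11 in Smad4KO, adjusted p = 3.2e-06).

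In Klf5KO, P3h4, a partner of the lysyl hydroxylases, averaged 154 ± 3.80 TPM, against 113 ± 9.73 TPM in WT (log2 fold change 0.44 ± 0.05, adjusted p = 3.4e-05), which after scaling was 0.087 (adjusted p = 0.288), and it fell in Smad4KO (-0.31 ± 0.05, adjusted p = 0.000706). Tmem38b, an ion channel of the endoplasmic reticulum needed for collagen folding, fell to 2.20 ± 0.190 TPM in EgfrKO and 1.14 ± 0.462 TPM in Klf5KO, against 5.07 ± 0.309 TPM in WT (log2 fold changes -0.92 ± 0.16 in EgfrKO, adjusted p = 0.000771, and -1.53 ± 0.16 in Klf5KO, adjusted p = 9.13e-06). P4ha2, a prolyl hydroxylase subunit, fell in all 3 knockouts on the log2 scale, by 0.65 ± 0.11 in EgfrKO (adjusted p = 0.00085), 0.48 ± 0.11 in Klf5KO (0.00262) and 0.80 ± 0.11 in Smad4KO (0.000116). In Smad4KO Colgalt1, a collagen galactosyltransferase, rose by 0.27 ± 0.04 (log2, SE; adjusted p = 0.000412) and Ppib, a prolyl isomerase, by 0.11 ± 0.04 (adjusted p = 0.0498), which after scaling was -0.01 (adjusted p = 0.932). Both were also called higher in Klf5KO, at 0.13 ± 0.04 (adjusted p = 0.025) and 0.10 ± 0.04 (adjusted p = 0.0392), and after scaling both were called lower there, at -0.22 (adjusted p = 0.00239) and -0.25 (adjusted p = 0.00384). P3h2, a prolyl hydroxylase, rose in EgfrKO (0.52 ± 0.16, adjusted p = 0.0187) and in Klf5KO (0.66 ± 0.16, adjusted p = 0.00294).

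Secreted procollagen is trimmed and its chains are then crosslinked. Of 13 tested genes for these steps, 2 rose and 2 fell in EgfrKO, 10 rose and none fell in Klf5KO, and 2 rose and 8 fell in Smad4KO, with medians of 0.05, 0.96 and -0.35. The shares were 15.4% in each direction in EgfrKO, 76.9% higher in Klf5KO and 61.5% lower in Smad4KO. After scaling the Klf5KO counts were 9 and 0. Tgm2, a transglutaminase that joins matrix proteins, rose in all 3 knockouts, to 320 ± 15.5 TPM in EgfrKO, 414 ± 33.1 in Klf5KO and 444 ± 14.8 in Smad4KO, against 153 ± 15.2 in WT. Its log2 fold change was 1.06 ± 0.08 in EgfrKO (adjusted p = 1.78e-06), 1.43 ± 0.08 in Klf5KO (adjusted p = 1.15e-07) and 1.53 ± 0.08 in Smad4KO (adjusted p = 4.21e-08). It thus moved opposite to most collagen genes in Smad4KO. Loxl3, a lysyl oxidase, averaged 58.3 ± 2.19 TPM in Klf5KO, 10.2 ± 0.396 in Smad4KO and 26.3 ± 2.90 in WT, with log2 fold changes of 1.13 ± 0.09 in Klf5KO (adjusted p = 2.12e-06) and -1.28 ± 0.09 in Smad4KO (adjusted p = 7.45e-07). Loxl1, another lysyl oxidase, fell in EgfrKO (-0.50 ± 0.11, adjusted p = 0.00417) and in Smad4KO (-1.16 ± 0.11, adjusted p = 6.37e-06) and rose in Klf5KO (1.10 ± 0.11, adjusted p = 8.84e-06). Pcolce2 and Pcolce encode enhancers of procollagen trimming. Pcolce2 rose in EgfrKO (0.57 ± 0.10, adjusted p = 0.000876) and fell in Smad4KO (-0.53 ± 0.10, adjusted p = 0.000885), and Pcolce rose in Smad4KO (0.46 ± 0.09, adjusted p = 0.0019). Tll1, a procollagen proteinase, fell in EgfrKO (-0.68 ± 0.15, adjusted p = 0.0037) and in Smad4KO (-1.02 ± 0.15, adjusted p = 0.000158).

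Cells bind collagen through integrins and discoidin domain receptors. Of 8 tested receptor and uptake genes, 3 rose and 2 fell in EgfrKO, 8 rose and none fell in Klf5KO, and 1 rose and 2 fell in Smad4KO, with medians of 0.25, 0.70 and 0.0028. In EgfrKO 37.5% were higher and 25% lower, and in Smad4KO 12.5% were higher and 25% lower. After scaling 4 were called higher and none lower in Klf5KO. Itga1, the collagen-binding integrin alpha 1 chain, rose in all 3 knockouts, to 15.7 ± 0.727 TPM in EgfrKO, 46.7 ± 6.17 TPM in Klf5KO and 22.8 ± 3.49 TPM in Smad4KO, against 9.84 ± 0.756 TPM in WT. Relative to WT it changed in log2 by 0.63 ± 0.11 in EgfrKO (adjusted p = 0.00109), 2.13 ± 0.11 in Klf5KO (adjusted p = 1.14e-07) and 1.13 ± 0.11 in Smad4KO (adjusted p = 8.49e-06). Ddr2, a receptor kinase for fibrillar collagen, averaged 1.84 ± 0.0273 TPM in EgfrKO, 5.47 ± 0.511 in Klf5KO and 0.330 ± 0.165 in WT, with log2 fold changes of 1.10 ± 0.13 in EgfrKO (adjusted p = 5.16e-05) and 2.29 ± 0.13 in Klf5KO (adjusted p = 1.4e-07). Itgb1, the shared beta 1 chain, fell in EgfrKO (-0.41 ± 0.07, adjusted p = 0.000723) and in Smad4KO (-0.57 ± 0.07, adjusted p = 3.28e-05). Itga2, the alpha 2 chain, fell in EgfrKO (-0.49 ± 0.13, adjusted p = 0.0108), and Ddr1, the epithelial collagen receptor kinase, fell in Smad4KO (-0.17 ± 0.05, adjusted p = 0.00993). These 3 were called higher in Klf5KO, at 0.41 ± 0.07 (adjusted p = 0.00028), 0.37 ± 0.13 (adjusted p = 0.0256) and 0.36 ± 0.05 (adjusted p = 4.14e-05), and none of the 3 calls remained after scaling. Lair1, an inhibitory collagen receptor of leukocytes, rose in EgfrKO (0.95 ± 0.15, adjusted p = 0.000363) and in Klf5KO (0.99 ± 0.15, adjusted p = 0.000111). Ddr2 and Lair1 were under 1 TPM in every WT and Smad4KO library. They and other genes of this list passed the filter only with the EgfrKO or Klf5KO libraries. The counts higher in those groups are therefore partly set by the filter.

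Of 5 tested collagen-degrading proteases, 2 rose and 2 fell in EgfrKO, 3 rose and none fell in Klf5KO, and none rose and 4 fell in Smad4KO, with medians of -0.19, 0.49 and -0.55. The 60% higher in Klf5KO and the 40% higher in EgfrKO were near the shares of all genes, and the 40% lower in EgfrKO and 80% lower in Smad4KO were above them. After scaling 2 were higher and 2 lower in Klf5KO. Mmp13, a collagenase, fell in Smad4KO to 9.06 ± 1.68 TPM and in EgfrKO to 25.7 ± 1.28 TPM, against 46.0 ± 9.64 TPM in WT (log2 fold changes -2.22 ± 0.17 in Smad4KO, adjusted p = 9.27e-07, and -0.79 ± 0.17 in EgfrKO, adjusted p = 0.00301). Mmp9, a gelatinase, fell in Smad4KO (-1.71 ± 0.22, adjusted p = 5.94e-05), and Mmp14, a membrane-bound collagenase, fell in EgfrKO (-0.29 ± 0.07, adjusted p = 0.00804) and in Smad4KO (-0.46 ± 0.07, adjusted p = 0.000313). In Klf5KO Mmp14 was called higher, at 0.20 ± 0.07 (adjusted p = 0.0349), and after scaling lower, at -0.16 (adjusted p = 0.0487), and Mmp13, at -0.18 ± 0.17 (adjusted p = 0.373), was also called lower after scaling, at -0.52 (adjusted p = 0.0234). Mmp2, another gelatinase, rose in Klf5KO to 10.2 ± 2.36 TPM and in EgfrKO to 3.76 ± 0.322 TPM, against 1.82 ± 0.667 TPM in WT (log2 fold changes 1.99 ± 0.19 in Klf5KO, adjusted p = 5.38e-06, and 0.78 ± 0.19 in EgfrKO, adjusted p = 0.00675). Ctsk, the protease cathepsin K, rose in Klf5KO (1.08 ± 0.20, adjusted p = 0.000669) and in EgfrKO (0.57 ± 0.20, adjusted p = 0.0418), where after scaling it was 0.45 (adjusted p = 0.107), and fell in Smad4KO (-0.55 ± 0.20, adjusted p = 0.0416).

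Markers of other cell types were measured in the same libraries. Krt8, a keratin of epithelial cells such as pancreatic tumour cells, averaged 2820 ± 95.7 TPM in EgfrKO, 1909 ± 137 in Klf5KO, 3206 ± 203 in Smad4KO and 2120 ± 105 in WT. Of 6 tested epithelial markers, 4 rose and 1 fell in EgfrKO, 1 rose and 4 fell in Klf5KO, and 6 rose and none fell in Smad4KO. Macrophage genes were present too: their 7 genes summed to 1046 to 1132 TPM in EgfrKO, 927 to 1466 in Klf5KO, 160 to 684 in Smad4KO and 637 to 1289 in WT. Of the 7, none was called in EgfrKO (1 higher at an unadjusted p under 0.05) or Klf5KO, and 2 fell in Smad4KO. Smad4KO replicate 2 had the lowest macrophage sum of all libraries, at 160 TPM. Endothelial genes, 6 in all, summed to 7.84 to 10.8 TPM in EgfrKO, 13.5 to 17.2 in Klf5KO, 2.75 to 3.97 in Smad4KO and 2.78 to 3.32 in WT, and all 3 tested rose in EgfrKO and in Klf5KO and none was called in Smad4KO. Some of these 3, such as Cdh5, passed the filter only with the EgfrKO and Klf5KO libraries. That count of rises is therefore partly set by the filter. Pericyte and smooth muscle genes, 7 in all, summed to 44.7 to 46.2 TPM in EgfrKO, 56.8 to 73.8 in Klf5KO, 32.1 to 39.4 in Smad4KO and 40.9 to 62.4 in WT. Of 4 tested, 1 rose and 1 fell in EgfrKO, 2 rose in Klf5KO and 1 fell in Smad4KO. No marker of these lists was listed at 0 throughout a group. The part of these cell types in the collagen values was not tested.

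The 10 fibroblast markers summed to 43.9 to 46.0 TPM in EgfrKO, 74.9 to 89.7 in Klf5KO, 34.7 to 40.3 in Smad4KO and 73.0 to 83.1 in WT. Of 9 tested, 1 rose and 2 fell in EgfrKO, 6 rose and 1 fell in Klf5KO, and 1 rose and 3 fell in Smad4KO. The Klf5KO shares, 66.7% higher and 11.1% lower, were near those of all genes. After scaling 2 were higher and 2 lower in Klf5KO. Mmp3, a stromelysin, had the highest mean TPM of the list, with 7.70 to 8.52 TPM in EgfrKO, 20.9 to 28.7 in Klf5KO, 7.31 to 7.95 in Smad4KO and 37.5 to 47.0 in WT. Without Mmp3, a choice made after its values were seen, the other 9 summed to 36.2 to 38.2 TPM in EgfrKO, 48.9 to 68.8 in Klf5KO, 27.2 to 32.3 in Smad4KO and 26.0 to 41.8 in WT. The Klf5KO libraries then lay above all others, and the EgfrKO and Smad4KO libraries fell within the WT range. The mean log2(TPM + 1) of the list was 2.09, 2.12 and 2.11 in EgfrKO, 2.88, 2.61 and 2.70 in Klf5KO, 1.72, 1.83 and 1.57 in Smad4KO, and 2.45, 2.27 and 2.04 in WT. These means take the same order as Col1a1 among the WT, the Klf5KO and the Smad4KO libraries, and were highest in Klf5KO and lowest in Smad4KO. Among the EgfrKO libraries the orders differ, with Col1a1 at 48.0, 45.4 and 43.0 TPM. The EgfrKO means of the list lay within the WT range, while Col1a1 in EgfrKO lay above all WT libraries. The part of fibroblasts in these values was not tested.

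With this mean as a covariate in the limma fit, collagen genes called higher in Klf5KO numbered 12 and those called lower in Smad4KO 7. The covariate lay above all WT libraries in Klf5KO and below all of them in Smad4KO. For these labels the fit compares at covariate values that the groups do not share, and takes part of the genotype difference by construction. The values below describe that fit and do not give collagen levels at equal fibroblast content. The type I and III chains changed most. In Klf5KO Col3a1 dropped to 0.11 (adjusted p = 0.705), while Col1a1 was at 1.01 (0.00358) and Col1a2 at 0.99 (0.00596), all still positive. In Smad4KO Col1a1, Col1a2 and Col3a1 were called higher, at 1.11 (adjusted p = 0.00225), 1.59 (0.000442) and 1.42 (0.000743), where the fit without the covariate gave negative, uncalled values. In EgfrKO the same genes were called higher, at 1.14 (adjusted p = 3.23e-05), 1.26 (2.78e-05) and 0.70 (0.00102). Several genes kept their calls with the covariate: in Smad4KO Col12a1 was at -1.45 (adjusted p = 0.00139), Col8a1 at -1.34 (0.00229) and Col5a1 at -1.21 (0.00114), and in Klf5KO Col16a1 was at 1.89 (3.14e-05), Col8a1 at 1.40 (0.00182) and Col12a1 at 1.36 (0.00198).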

How the data were processed

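RNA sequencing of 12 libraries was used, 3 for each of 4 genotype labels. The values came as 1 deposited table of TPM by gene symbol, which the authors made with Salmon on mm10 per the submitters' processing notes. The sources used here do not give the version of Salmon, the annotation or the use of strand. Each column of deposited TPM sums to 1000000, so the values are shares and no depth is kept. All columns were matched to samples by name.

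A pseudocount of 1 was added to TPM before log2. Genes with at least 1 TPM in at least 3 libraries, 13662 in number, were fitted with limma 3.58.1 (R 4.3.3) as 4 genotype means over all libraries, with a trend in the spread. Tests were two-sided, and p-values were adjusted by Benjamini-Hochberg over all tested genes within each of 6 contrasts, at a threshold of 0.05. The alternatives were a pseudocount of 0.1, no filter, a filter at 5 TPM, median-of-ratios scaling, quantile normalization, no trend, a fit of the 2 genotypes compared, a replicate block, a fibroblast-list covariate and leaving out each library. The fibroblast sum without Mmp3 was added after seeing the data. The fit was tested on simulated data.

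The collagen genes, the 4 pathway lists and the 5 marker lists were chosen with earlier results of these data known. Collagen genes with a mean of at least 5 TPM in at least 1 genotype or a call in at least 1 contrast are given per library. Of each pathway list, up to 2 called genes per direction with the smallest adjusted p in each contrast against WT are named. Of each marker list the 2 with the highest mean TPM could be named. All 44 collagen genes matched RefSeq GRCm38.p6 and GENCODE M21, and promoter windows of 250 bases before and 50 after the start were at hand for 35. Overlapping genes were looked up in GENCODE M21: 7 tested collagen genes share exon bases with another gene.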

Additional observations from a re-analysis of the deposited data

How the results depend on the processing

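In EgfrKO against WT, collagen genes called higher numbered 5, and 1 with median-of-ratios scaling, 2 with quantile normalization, 8 with the fibroblast list as a covariate and 2 to 7 with each library left out. Those called lower numbered 5, and 3 with no filter on low values, 8 with median-of-ratios scaling, 8 with quantile normalization, 3 with a replicate block, 3 with the fibroblast covariate and 3 to 4 with each library left out. The 1 gene lower in Klf5KO became 2 with median-of-ratios scaling or quantile normalization, 0 with the fibroblast covariate or only the 2 genotypes compared, and 0 to 1 with each library left out. With the fibroblast covariate the 18 higher in Klf5KO became 12, and the 2 higher and 13 lower in Smad4KO became 4 and 7; no other alternative tried moved these counts by over 1.5 times. Between knockouts that covariate gave 5 lower in EgfrKO against Klf5KO, 4 higher and 2 lower in EgfrKO against Smad4KO, and 6 higher and 1 lower in Klf5KO against Smad4KO.

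Among log2 fold changes called with or without the alternative, that of Col18a1 in Klf5KO turned sign with median-of-ratios scaling, to -0.043, and 13 did with the fibroblast covariate. These became 1.11 for Col1a1, 1.59 for Col1a2, 1.42 for Col3a1 and 0.36 for Col6a3 in Smad4KO against WT. In EgfrKO against Klf5KO they became 0.13 for Col1a1, 0.28 for Col1a2, 0.59 for Col3a1 and 0.25 for Col6a3, in EgfrKO against Smad4KO -0.33 for Col1a2 and -0.72 for Col3a1, and in Klf5KO against Smad4KO -0.10 for Col1a1, -0.61 for Col1a2 and -1.31 for Col3a1. Signs also turned in values that neither fit called: 7 with median-of-ratios scaling, 4 with quantile normalization, 1 with a pseudocount of 0.1, 9 with libraries left out and 5 with the covariate, among them Col5a2 (0.71) and Col11a2 (-0.11) in Smad4KO and Col5a3 (-0.090) in Klf5KO. The covariate is measured in the same libraries and differs between genotypes, so it takes part of the genotype difference by construction, and the cause of these changes was not tested. After median-of-ratios scaling the summed TPM of basement membrane collagens was 471 in Klf5KO and 430 in WT, and that of other collagens 442 in Klf5KO and 256 in WT.

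Replicate numbers did not pair the libraries: correlations of deviations between same-numbered libraries were -0.149 to 0.116, with 1 of 18 over 0.1, so the replicate block shares only a number. It kept 42 of the 44 calls against WT. Because TPM keeps no depth, what depth limits cannot be stated.

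Without Mmp3, an alternative added after seeing the data, the mean fibroblast sum was 36.9 TPM in EgfrKO, 57.2 in Klf5KO, 29.5 in Smad4KO and 34.7 in WT.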
